A study of Mus musculus with 12 samples.

Results

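The 44 genes described here carry a Wnt signal from outside the cell to the nucleus, or limit it. They are the 10 frizzled receptors, 2 co-receptors, 8 secreted antagonists, 6 R-spondins and R-spondin receptors, 2 ubiquitin ligases that remove receptors, 2 proteins of ligand acylation and secretion, 7 cytoplasmic transducers, 4 nuclear TCF/LEF factors and 3 cytoplasmic feedback inhibitors. The Wnt ligands themselves were left out of the list. The genes were taken by symbol from a list of pathway members that was drawn up with earlier results of these data known, and all 44 were found among the 22667 gene identifiers of the tables. RNA had been sequenced from 2 brain regions, cortex and hippocampus, of mouse embryos collected at E18.5 dpc (days post coitum). The animals were labelled Wild type or control, or nSR100/Srrm4 KO. Srrm4, also called nSR100, is a splicing regulator of neurons. The KO descends from EUCOMM stem cells of 2 clones with a conditional nSR100lox allele, aggregated with outbred ICR morulae. Exons 7 and 8 were removed by a Cre transgene (line B6.C-Tg(CMV-cre)1Cgn/J) driven by a cytomegalovirus promoter, and so not limited to neurons or brain. Mice with the lox allele were kept on a C57Bl/6N background. The labels do not give the zygosity of the KO embryos, whether the controls carried Cre or the lox allele, or whether a library came from 1 animal or several. Each of the 4 groups (cortex and hippocampus, each control and KO) has 2 libraries, called replicates 1 and 2, and paired values below give replicate 1 first.

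As background, Wnt ligands are acylated by Porcn, carried to the cell surface by Wls, and bound by a frizzled receptor together with Lrp5 or Lrp6. The bound receptors act through dishevelled proteins to stop the destruction complex of Axin, Apc and Gsk3b from degrading beta-catenin (Ctnnb1), which then joins TCF/LEF factors on DNA. Znrf3 and Rnf43 clear frizzled receptors from the membrane, and R-spondins, through Lgr receptors, take these ligases away. In the embryonic forebrain the cortical hem, a strip at the medial edge of the cortex next to the forming hippocampus, is a known source of Wnt ligands, and loss of Wnt signalling there is known to impair hippocampal development.

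Levels are given as RPKM, the authors' read counts scaled by gene length and by library size, which allow genes to be compared per length. Differences between groups are log2 fold changes from edgeR's quasi-likelihood test on the deposited counts, with their standard error (SE) and a p-value adjusted by Benjamini-Hochberg over all 16111 genes tested. A gene is called higher or lower where the adjusted p was under 0.05. Libraries held 58210499 to 140052443 counts, so that 3 counts correspond to 0.0214 to 0.0515 CPM (counts scaled to the size of the library). All 44 genes passed the filter on low counts, 38 of them with a mean of at least 1 RPKM over the 8 libraries. The first principal component held 79.1% of the variance and separated the tissues. Srrm4 RNA, counted over the whole gene and not over the removed exons, was at 25.22 and 24.22 RPKM in control cortex, 8.12 and 6.97 in KO cortex, 26.03 and 27.86 in control hippocampus and 5.68 and 6.16 in KO hippocampus. Its level was thus lower in all 4 KO libraries than in all 4 controls (log2 fold change over both tissues -1.96, SE 0.11, adjusted p = 0.00016 by edgeR). Replicate 2 of both KO groups stood apart in Y-linked genes (summed 0.319 and 0.412 CPM, against 25.4 to 148 in the other 6 libraries). The samples are bulk tissue, so fewer cells of a type and less RNA per cell cannot be told apart. Replicates 1 and 2 also differed in summed Y-linked CPM in the controls, at 35.3 and 144 in cortex and 39.6 and 148 in hippocampus. In no group were they thus repeats of 1 RNA sample. Within both KO groups the sex of the animals differed between replicates, though the labels give no sex. How many animals a library holds is not known, so the p-values describe only how much these particular libraries vary.

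The largest contrast among these genes was between tissues. In controls, 26 of the 44 genes were higher in hippocampus than in cortex, 6 were lower and 12 did not pass the test. Of all genes tested, 33.9% were called in this comparison, 19.0% as higher and 14.9% as lower. The median log2 fold change of the 44 was 0.55, beside 0.01 over all genes tested, and the median size without sign was 0.89, beside 0.25. The count of 32 called genes was 25 to 31 with any 1 of the 8 libraries left out. Over all genes, leaving out control cortex replicate 1 lowered the number called from 5464 to 3231, and the 44 then held 27.

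**Figure D1:**
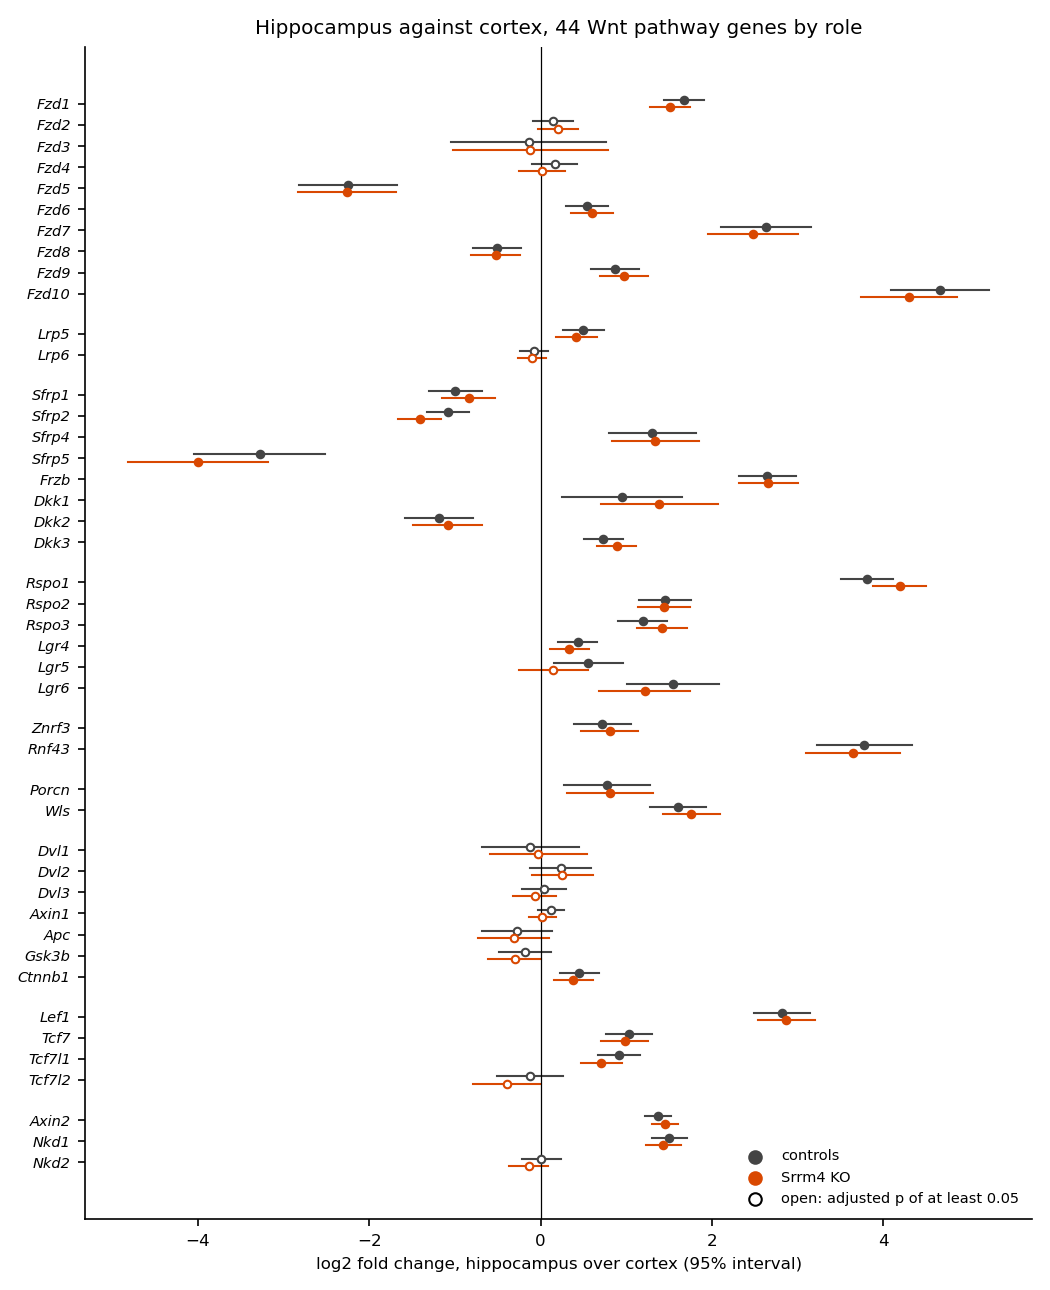
Log2 fold change of hippocampus over cortex in controls and in KO for each of the 44 genes, grouped by role, with 95% intervals as bars. Genes of R-spondins and their receptors all lie right of 0, secreted antagonists lie on both sides, and cytoplasmic transducers lie near 0.

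The 10 frizzled receptors, the membrane proteins that bind Wnt ligands, split into 5 that were higher in hippocampus, 2 that were lower and 3 that did not pass. Fzd10 showed the largest difference of all 44 genes. It lay at 0.16 and 0.11 RPKM in control cortex, 0.18 and 0.17 in KO cortex, 4.22 and 3.26 in control hippocampus and 4.38 and 3.26 in KO hippocampus. Cortex was thus close to no Fzd10 RNA, and no hippocampal library came near a cortical one. The log2 fold change in controls was 4.66 (SE 0.25, adjusted p = 8.9e-06 by edgeR). Fzd7 lay at 2.32 and 2.24 RPKM in control cortex, 2.41 and 2.36 in KO cortex, 15.03 and 14.69 in control hippocampus and 10.55 and 18.22 in KO hippocampus. The hippocampal KO libraries of Fzd7 were the most uneven pair of any group for this gene, yet both exceeded all 4 cortical libraries (log2 fold change in controls 2.63, SE 0.23, adjusted p = 9e-05 by edgeR).

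Fzd1 was the most abundant frizzled gene of the hippocampus, with 30.42 and 27.84 RPKM in control and 25.58 and 29.72 in KO. In cortex Fzd1 lay at 8.71 and 8.63 RPKM in control and 8.59 and 9.46 in KO, so the tissues did not overlap (log2 fold change in controls 1.68, SE 0.10, adjusted p = 1.6e-05 by edgeR). Fzd9 and Fzd6 rose by less, with log2 fold changes of 0.87 and 0.54. The call of Fzd6 was lost without control cortex replicate 1 (adjusted p = 0.056 by edgeR). Fzd5 moved the other way from a low level, at 0.43 and 0.51 RPKM in control cortex, 0.54 and 0.44 in KO cortex, 0.09 and 0.12 in control hippocampus and 0.13 and 0.08 in KO hippocampus. All 4 hippocampal libraries were below all 4 cortical ones (log2 fold change in controls -2.25, SE 0.25, adjusted p = 0.0003 by edgeR). Fzd8 was lower by a log2 fold change of -0.51, a call that was lost without any 1 of the 4 control libraries (adjusted p = 0.062 to 0.076 by edgeR).

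Fzd2, Fzd3 and Fzd4 did not pass between tissues. Fzd3, a receptor known for axon guidance and planar polarity, lay at 15.42 and 10.45 RPKM in control cortex, 16.12 and 10.49 in KO cortex, 15.59 and 9.02 in control hippocampus and 17.71 and 8.80 in KO hippocampus. In every group its replicate 2 was the lower library, and the tissues overlapped (log2 fold change in controls -0.14, SE 0.39, adjusted p = 0.83 by edgeR). That sign turned without control cortex replicate 1 (0.19) and without control hippocampus replicate 2 (0.22).

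The order of the frizzled levels therefore differed by tissue. By mean RPKM the order in control cortex was Fzd3, Fzd1, Fzd2, Fzd8, Fzd9, Fzd7, Fzd6, Fzd4, Fzd5 and Fzd10, in which only the neighbours Fzd7 and Fzd6 had overlapping libraries. In control hippocampus it was Fzd1, Fzd7, Fzd3, Fzd9, Fzd2, Fzd10, Fzd8, Fzd6, Fzd4 and Fzd5. There the libraries overlapped between Fzd7 and Fzd3, between Fzd9 and Fzd2, between Fzd10 and Fzd8 and between Fzd8 and Fzd6. Summed over all 10, frizzled RNA came to 39.2 to 46.6 RPKM in the 4 cortical libraries and 76.6 to 88.2 in the 4 hippocampal ones. Fzd1 made up 19.3 and 22.0% of that sum in the control cortex libraries and 34.5 and 36.3% in the control hippocampus ones, and Fzd3 made up 34.2 and 26.7% and 17.7 and 11.8%.

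**Figure D2:**
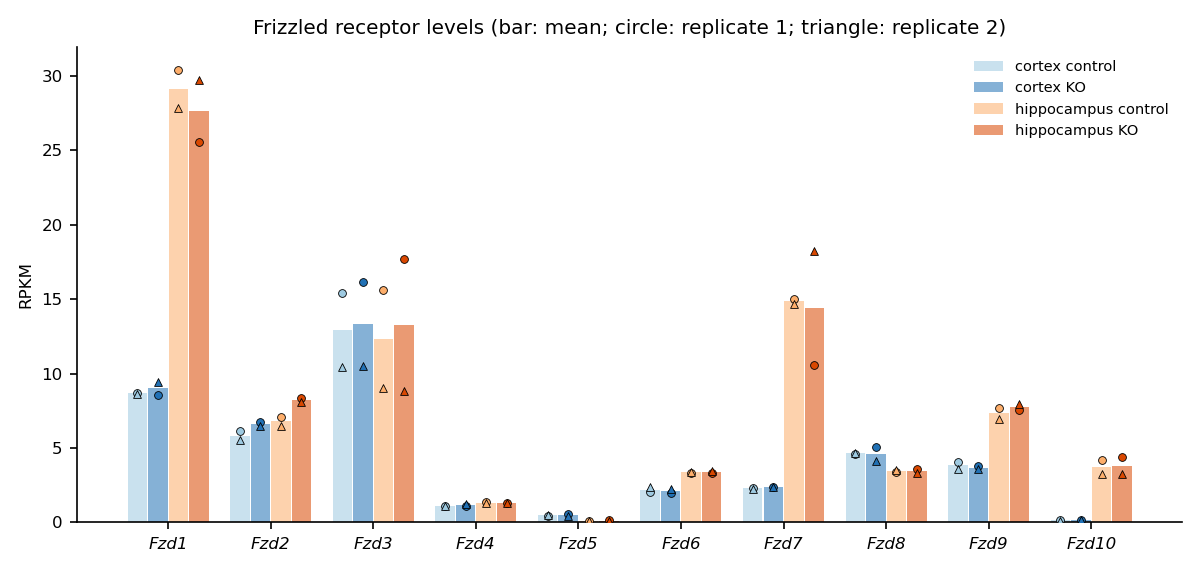
RPKM of the 10 frizzled genes in each of the 8 libraries, by group, with bars at the group means. As fold changes, Fzd10 and Fzd7 separate the tissues most widely upwards and Fzd5 downwards, while Fzd2 and Fzd4 differ little between tissues.

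Of the co-receptors, Lrp6 did not pass between tissues and Lrp5 was slightly higher in hippocampus. Lrp6 lay at 10.77 and 11.16 RPKM in control cortex, 11.70 and 11.24 in KO cortex, 10.89 and 11 in control hippocampus and 12.16 and 10.95 in KO hippocampus. Within each genotype the tissues overlapped, while both KO cortex libraries lay above all 4 control libraries (KO against control in cortex 0.07, 95% interval -0.095 to 0.235, adjusted p = 1 by edgeR). The tissue difference in controls was -0.08 on the log2 scale (95% interval -0.24 to 0.09, adjusted p = 0.47 by edgeR). Lrp5 had a log2 fold change of 0.50 (SE 0.10), which was not called without control cortex replicate 2 or without control hippocampus replicate 1 (adjusted p = 0.058 and 0.057 by edgeR).

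Both genes of ligand acylation and secretion were higher in hippocampus. Wls, the carrier that brings Wnt ligands to the surface, lay at 4.66 and 5.15 RPKM in control cortex, 5.14 and 4.80 in KO cortex, 16.69 and 14.62 in control hippocampus and 20.73 and 15.62 in KO hippocampus. Every hippocampal library exceeded every cortical one, with a log2 fold change in controls of 1.61 (SE 0.14, adjusted p = 0.0001 by edgeR). Porcn, the acyltransferase, lay at 17.23 and 21.63 RPKM in control cortex, 15.63 and 22.12 in KO cortex, 29.36 and 40.69 in control hippocampus and 29.79 and 41.13 in KO hippocampus. Replicate 2 of Porcn was the higher library in every group, and the tissues still did not overlap (log2 fold change in controls 0.78, SE 0.22, adjusted p = 0.026 by edgeR). With 1 control library left out the adjusted p of Porcn was 0.17 without cortex replicate 1, 0.057 without cortex replicate 2 and 0.15 without hippocampus replicate 2, all by edgeR.

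The 8 secreted antagonists were all called, and they divided evenly, with 4 higher and 4 lower in hippocampus. These proteins either bind Wnt ligands directly (the Sfrp family and Frzb) or block the co-receptors (Dkk1 and Dkk2); Dkk3 is a relative of the latter whose action on Wnt is less clear. Frzb rose most, from 0.69 and 0.62 RPKM in control cortex and 0.63 and 0.55 in KO cortex to 4.66 and 4.07 in control hippocampus and 3.92 and 4.16 in KO hippocampus. The tissues were far apart in all libraries (log2 fold change in controls 2.65, SE 0.15, adjusted p = 1.1e-05 by edgeR). Dkk3 lay at 16.51 and 16.03 RPKM in control cortex, 15.46 and 15.44 in KO cortex, 29.98 and 26.84 in control hippocampus and 33.10 and 28.42 in KO hippocampus. It was the most abundant antagonist of the hippocampus, without overlap between tissues (log2 fold change in controls 0.73, SE 0.10, adjusted p = 0.00074 by edgeR). Sfrp4 was higher by a log2 fold change of 1.31, from a mean of 0.56 ± 0.198 RPKM in control cortex to 1.42 ± 0.021 in control hippocampus (SD, n = 2).

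Dkk1 was the least abundant of the rising antagonists, at 0.11 and 0.08 RPKM in control cortex and 0.17 and 0.22 in control hippocampus. Its call was at the edge of the threshold (log2 fold change 0.95, SE 0.30, adjusted p = 0.042 by edgeR). It was lost in DESeq2 (adjusted p = 0.14) and on leaving out any of 6 libraries, the 4 controls (0.082 to 0.18) and either KO hippocampus library (0.052 without replicate 1, 0.051 without replicate 2).

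The falling antagonists included the most abundant one of the cortex. Sfrp1 lay at 24.40 and 24.07 RPKM in control cortex, 26.68 and 23.91 in KO cortex, 12.97 and 12.60 in control hippocampus and 17.62 and 12.88 in KO hippocampus. The highest hippocampal library, KO replicate 1, remained below all cortical ones (log2 fold change in controls -0.995, SE 0.14, adjusted p = 0.00083 by edgeR). Sfrp2 lay at 10.18 and 9.75 RPKM in control cortex, 11.62 and 10.67 in KO cortex, 5.05 and 4.85 in control hippocampus and 4.32 and 4.76 in KO hippocampus. Here too the tissues were separate in every library (log2 fold change in controls -1.08, SE 0.11, adjusted p = 0.00018 by edgeR). Sfrp5 lay at 1.10 and 1.06 RPKM in control cortex, 1.41 and 0.91 in KO cortex, 0.09 and 0.16 in control hippocampus and 0.09 and 0.06 in KO hippocampus. This was the largest fall of the 44 genes, to a hippocampal level close to 0 (log2 fold change in controls -3.28, SE 0.33, adjusted p = 0.00019 by edgeR). Dkk2 lay at 0.75 and 0.80 RPKM in control cortex, 0.73 and 0.71 in KO cortex, 0.40 and 0.30 in control hippocampus and 0.36 and 0.37 in KO hippocampus. Its levels were low throughout and separate by tissue (log2 fold change in controls -1.19, SE 0.17, adjusted p = 0.0012 by edgeR).

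All 6 genes of the R-spondin system, the secreted R-spondins that raise Wnt receptor levels and the Lgr receptors they bind, were higher in hippocampus. Rspo1 lay at 0.43 and 0.45 RPKM in control cortex, 0.35 and 0.38 in KO cortex, 6.46 and 6.55 in control hippocampus and 7.60 and 6.68 in KO hippocampus. It had the smallest p of the 44 genes in this comparison, and the replicates of each group were close together (log2 fold change in controls 3.81, SE 0.13, adjusted p = 2.2e-06 by edgeR). Rspo2 lay at 4.05 and 4.15 RPKM in control cortex, 4.38 and 4.37 in KO cortex, 12.40 and 11.16 in control hippocampus and 14.56 and 11.08 in KO hippocampus. Rspo2 was 2.74-fold higher in control hippocampus than in control cortex (log2 fold change 1.45, SE 0.13, adjusted p = 0.00011 by edgeR). Rspo3 lay at 4.87 and 4.92 RPKM in control cortex, 4.97 and 5.22 in KO cortex, 12.28 and 11.26 in control hippocampus and 16.43 and 12.83 in KO hippocampus. Its hippocampal libraries were above all cortical ones, and KO replicate 1 was the highest (log2 fold change in controls 1.20, SE 0.12, adjusted p = 0.00021 by edgeR). Rspo1 was thus nearly missing from cortex beside Rspo2 and Rspo3, and in hippocampus all 3 lay within 6.46 to 16.43 RPKM.

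Among the R-spondin receptors, Lgr6 lay at 0.21 in both control cortex libraries, 0.26 and 0.23 RPKM in KO cortex, 0.73 and 0.55 in control hippocampus and 0.71 and 0.52 in KO hippocampus. The level was low in both tissues and higher in each hippocampal library (log2 fold change in controls 1.55, SE 0.23, adjusted p = 0.0014 by edgeR). Lgr4, the most abundant of these receptors, had a mean of 2.91 ± 0.127 RPKM in control cortex and 4.15 ± 0.134 in control hippocampus (SD, n = 2). Its adjusted p of 0.011 by edgeR became 0.088 without control cortex replicate 2, 0.056 without control hippocampus replicate 1 and 0.058 without control hippocampus replicate 2. Lgr5 lay at 0.25 and 0.20 RPKM in control cortex and 0.33 and 0.37 in control hippocampus, with a log2 fold change of 0.56 (SE 0.18, adjusted p = 0.04 by edgeR). That call was lost in DESeq2 (adjusted p = 0.11), with only the 4 control libraries (0.061 by edgeR), and on leaving out control cortex replicate 2 (0.22), control hippocampus replicate 1 (0.11) or replicate 2 (0.16), or KO cortex replicate 1 (0.055) or replicate 2 (0.058).

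The 2 ligases that remove frizzled receptors were both higher in hippocampus. Rnf43 lay at 0.17 and 0.09 RPKM in control cortex, 0.15 and 0.17 in KO cortex, 1.87 and 1.99 in control hippocampus and 2.08 and 2.11 in KO hippocampus. Like Fzd10 and Rspo1, Rnf43 was close to 0 in cortex only (log2 fold change in controls 3.78, SE 0.24, adjusted p = 2e-05 by edgeR), and the fold change was 4.43 without control cortex replicate 1. Znrf3 was present in both tissues, at 2.13 and 1.76 RPKM in control cortex, 1.93 and 1.69 in KO cortex, 3.56 and 3.21 in control hippocampus and 3.67 and 3.17 in KO hippocampus. Its rise was the smaller of the pair (log2 fold change in controls 0.72, SE 0.14, adjusted p = 0.0055 by edgeR).

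Of the 7 cytoplasmic transducers 1 was called, Ctnnb1, which was higher in hippocampus. Ctnnb1, the gene of beta-catenin, was also by far the most abundant of the 44. It lay at 276.95 and 275.93 RPKM in control cortex, 292.39 and 272.60 in KO cortex, 415.54 and 380.91 in control hippocampus and 399.57 and 393.60 in KO hippocampus. The tissues did not overlap (log2 fold change in controls 0.45, SE 0.10, adjusted p = 0.009 by edgeR). By edgeR, Ctnnb1 was no longer called once either control cortex library (adjusted p of 0.052 without replicate 1 and 0.077 without replicate 2) or control hippocampus replicate 1 (0.072) was left out. Apc, the scaffold of the destruction complex, lay at 80.89 and 65.06 RPKM in control cortex, 80.37 and 65.41 in KO cortex, 70.19 and 56.74 in control hippocampus and 69.42 and 57.20 in KO hippocampus. Its replicates differed by more than its tissues, and each hippocampal library lay below the cortical library of the same genotype and replicate number (log2 fold change in controls -0.27, SE 0.18, adjusted p = 0.29 by edgeR). Axin1, Gsk3b, Dvl1, Dvl2 and Dvl3 had log2 fold changes from -0.18 to 0.23 in controls, none of which passed. These results depend on not pairing libraries by replicate number. With that number as a block, Apc passed as lower (adjusted p = 0.011 by edgeR) and Dvl2 as higher (0.016) in controls. In KO the block added Apc (0.0057) and Gsk3b (0.019) as lower and Dvl2 (0.0085) as higher, all by edgeR.

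The TCF/LEF factors, which bring beta-catenin to DNA, were higher in hippocampus in 3 of 4 cases. Lef1 lay at 1.06 and 1.15 RPKM in control cortex, 1.02 and 1.04 in KO cortex, 8.75 and 7.57 in control hippocampus and 7.29 and 8.91 in KO hippocampus. No hippocampal library was near a cortical one (log2 fold change in controls 2.82, SE 0.14, adjusted p = 7.8e-06 by edgeR). Tcf7 lay at 2.01 and 1.96 RPKM in control cortex, 1.77 and 1.95 in KO cortex, 3.91 and 4.64 in control hippocampus and 3.82 and 4.06 in KO hippocampus. The groups of the 2 tissues were separate (log2 fold change in controls 1.03, SE 0.12, adjusted p = 0.00035 by edgeR). Tcf7l1, often a repressor of target genes, rose by 0.91 on the log2 scale, and Tcf7l2, at 1.57 to 2.25 RPKM in all 8 libraries, did not pass (-0.12, SE 0.17, adjusted p = 0.63 by edgeR). In cortex the 4 factors thus lay close together at 1.02 to 2.25 RPKM, and in hippocampus Lef1 exceeded the other three.

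Of the feedback inhibitors, Axin2 and Nkd1 were higher in hippocampus and Nkd2 was level. Axin2, a scaffold of the destruction complex and a widely used readout of beta-catenin activity, lay at 6.01 and 6.25 RPKM in control cortex, 6.06 and 6.29 in KO cortex, 16.23 and 17.13 in control hippocampus and 18.32 and 18.15 in KO hippocampus. It had the smallest SE of the 44 genes, and every hippocampal library was above 16 RPKM (log2 fold change in controls 1.37, SE 0.07, adjusted p = 5.8e-06 by edgeR). Nkd1, which binds dishevelled, lay at 3.32 and 3.29 RPKM in control cortex, 3.39 and 3.27 in KO cortex, 10.24 and 9.44 in control hippocampus and 9.59 and 9.81 in KO hippocampus. The 4 hippocampal values were again close to each other (log2 fold change in controls 1.5, SE 0.09, adjusted p = 1.4e-05 by edgeR). Nkd2 had a log2 fold change of 0.01 (95% interval -0.22 to 0.24).

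**Figure D3:**
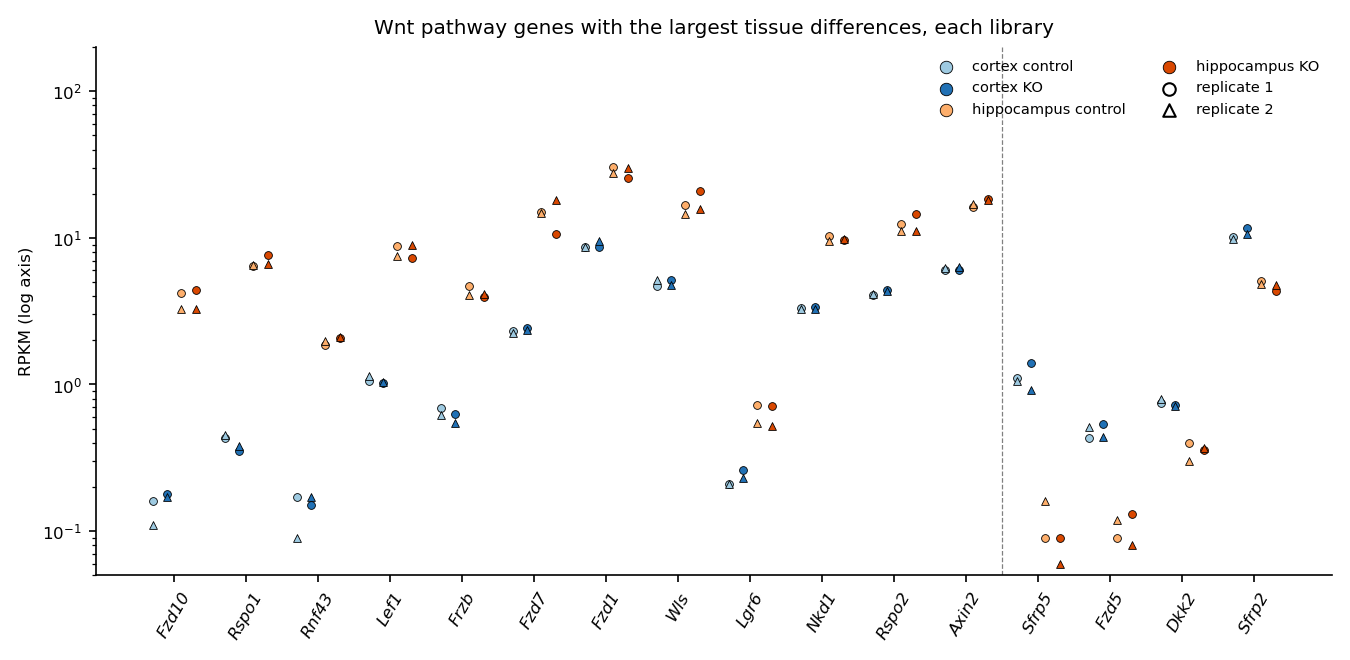
RPKM in each of the 8 libraries for the genes with the largest tissue differences, on a log axis, with 1 point per library. Control and KO libraries of a tissue lie together, and the 2 tissues are apart for each gene shown.

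Many targets of beta-catenin in other tissues were also higher. Of 12 such genes on a list, 7 of which are among the 44 (Axin2, Lef1, Nkd1, Rnf43, Znrf3, Lgr5 and Tcf7), 11 were higher in control hippocampus and 1, Myc, was lower. Of all genes tested, 19.0% were called higher and 14.9% lower. The 5 targets outside the 44 held 4 higher and 1 lower. In KO, 10 of the 12 were higher and 1 lower, beside 21.2% and 18.8% of all genes tested. Outside the 44, Sp5, a transcription factor gene, had the largest difference, from 0.16 and 0.19 RPKM in control cortex to 4.23 and 3.54 in control hippocampus (log2 fold change 4.42, SE 0.20, adjusted p = 4.9e-06 by edgeR). Apcdd1, Notum and Ccnd1 were higher by log2 fold changes of 0.96, 1.33 and 0.85, and Myc was lower by -0.50.

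TCF/LEF factors recognise DNA around the core CTTTGA, so the promoters of the 44 genes were searched for these letters on either strand (TCAAAG on the other). The promoter table used, from RefSeq on GRCm38.p6, gives 300 bases per start, from 250 before to 50 after it, and holds 28 of the 44 genes. The core was present for 5 of these 28 genes (17.9%), beside 4911 of 27025 genes in the table (18.2%). Among the genes called in controls it was present for 4 of 17 that were higher (23.5%) and for 0 of 4 that were lower, and among those that did not pass for 1 of 7, Gsk3b. The matches in genes that rose are shown because they are the cases where the motif and the tissue difference coincide, and Gsk3b because it carries the motif and did not pass. Each line is written 5′ to 3′ on the strand of the gene, with the motif in capitals.
Dkk1, chr19:30549581-30549640, minus strand: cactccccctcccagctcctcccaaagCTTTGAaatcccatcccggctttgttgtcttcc
Dkk1, chr19:30549638-30549697, minus strand: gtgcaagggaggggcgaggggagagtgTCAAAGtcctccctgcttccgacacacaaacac
Frzb, chr2:80447459-80447518, minus strand: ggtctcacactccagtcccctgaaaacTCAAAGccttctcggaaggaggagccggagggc
Fzd1, chr5:4758426-4758466, minus strand: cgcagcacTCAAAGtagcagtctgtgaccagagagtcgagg
Lef1, chr3:131156087-131156146, plus strand: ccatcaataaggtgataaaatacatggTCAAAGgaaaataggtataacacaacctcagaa
Lef1, chr3:131156147-131156206, plus strand: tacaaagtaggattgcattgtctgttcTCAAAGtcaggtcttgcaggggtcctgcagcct
Gsk3b, chr16:38088897-38088956, plus strand: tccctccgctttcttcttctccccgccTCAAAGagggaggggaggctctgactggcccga
Dkk1 carries 2 matches, 117 and 174 bases before its start, on opposite strands, and Lef1 carries 2 at 1 of its 4 listed starts. Axin2, Nkd1, Rnf43, Tcf7, Fzd10, Rspo1 and Wls, which were among the genes with clear tissue differences, had no match in their windows. These are descriptions of letters in a window, and none of them was measured as a bound site.

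Other genes of the pathway, taken from a list of 70, split more evenly. Of the 66 that were tested, 22 were higher and 13 lower in control hippocampus, beside 19.0% and 14.9% of all genes tested. The median log2 fold change of the 66 was 0.03. The ligands among them moved furthest: of 17 tested, 8 were higher and 6 lower. Wnt8b, a ligand known from the cortical hem, lay at 0.03 and 0.06 RPKM in control cortex and 8.34 and 6.60 in control hippocampus, and Wnt3a at 0.02 and 0.02 and at 2.74 and 1.98. Their log2 fold changes were 7.47 (SE 0.53) and 6.90 (SE 0.34), and that of Wnt10a was 4.01 (SE 0.31). The largest falls were those of Wnt1 (-2.39, SE 0.67) and of the planar polarity genes Prickle1 (-1.67, SE 0.11) and Prickle2 (-1.39, SE 0.11). Wnt1 did not exceed 0.10 RPKM in any library.

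Markers of the tissues fitted the labels, and markers of several other cell types moved with them. Summed over the 4 hippocampal markers that were matched, levels were 412 to 498 CPM in the cortical libraries and 2188 to 2500 in the hippocampal ones, with 4 of 4 called higher in controls. The 7 neocortical markers summed to 1858 to 1915 and 575 to 732 CPM, with 6 lower and 1 higher. The 6 markers of Cajal-Retzius cells and cortical hem, all higher, summed to 481 to 621 and 1227 to 1706 CPM, and Lmx1a, a hem marker, was at 0.06 to 0.08 RPKM in cortex and 3.15 to 4.87 in hippocampus. Choroid plexus markers (5 of 7 higher) summed to 4.22 to 11.4 and 27.3 to 205 CPM. The highest of these libraries, control hippocampus replicate 2, held 152.38 RPKM of Ttr, beside 13.42 in control hippocampus replicate 1. Meningeal fibroblast markers (6 of 7 higher) summed to 12.3 to 14.7 and 39.3 to 84.6 CPM, and radial glia markers (6 of 8 higher) to 1282 to 1338 and 2190 to 2624. Intermediate progenitors (5 of 5 higher) summed to 93.4 to 117 and 282 to 328 CPM, microglia (5 of 8 higher) to 44.8 to 56.3 and 80.0 to 106, endothelium (4 of 7 higher) to 147 to 166 and 195 to 218, and pericytes (3 of 5 higher) to 146 to 163 and 196 to 218. Striatal markers were lower in 9 of 9 cases (250 to 271 and 26.2 to 38.1 CPM), oligodendrocyte lineage markers in 4 of 5 (172 to 200 and 108 to 140) and thalamic ones in 4 of 6 tested, with 1 higher (164 to 171 and 96.2 to 116), where Shox2 was at 0 counts in 4 libraries. Early astrocyte markers were mixed, with 3 higher and 2 lower of 6 (232 to 246 and 414 to 469 CPM). The part of these cell types in the differences above was not tested.

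In KO animals the tissues were compared in the same way, with group means from other libraries, although the spread in both comparisons was estimated over all 8. Here 25 of the 44 genes were higher in hippocampus, 6 were lower and 13 did not pass, beside 40.0% of all genes tested called (21.2% higher and 18.8% lower). The median log2 fold change was 0.51, beside 0.03 over all genes tested. In both genotypes 31 genes were called in the same direction, 12 in neither, and 1, Lgr5, in controls only. The same overlap was not counted over all genes tested. The difference between the 2 tissue effects of Lgr5 was -0.41 on the log2 scale (SE 0.25, adjusted p = 1 by edgeR), so the missing call in KO does not show a different effect. Scaling by total counts moved the split of all called genes in KO from 3415 higher and 3027 lower to 4278 and 2219, and that of the 44 from 25 and 6 to 26 and 6. Fzd10 differed by 4.30 in KO and 4.66 in controls, Rspo1 by 4.19 and 3.81, Rnf43 by 3.65 and 3.78, Lef1 by 2.87 and 2.82, Axin2 by 1.46 and 1.37 and Sfrp2 by -1.41 and -1.08, all as log2 fold changes. Of the 44, 43 had tissue effects in the 2 genotypes within 0.5 of each other. The exception, Sfrp5, had -4.00 (SE 0.35) in KO and -3.28 (SE 0.33) in controls. Without sign, the median difference between the 2 tissue effects was 0.104 for the 44, and it was no larger over all genes tested. Close tissue effects were thus not particular to these genes. Without KO cortex replicate 1 the number called over all genes fell from 6442 to 4156, and the 44 then held 27. On leaving out single libraries 6 of the 31 calls in KO were lost, all by edgeR. These were Porcn without KO cortex replicate 1 (adjusted p = 0.12) or KO hippocampus replicate 2 (0.11), Ctnnb1 without KO cortex replicate 2 (0.11) and Fzd8 without KO cortex replicate 1 (0.077). Dkk1 was lost without KO cortex replicate 1 (0.081) or KO hippocampus replicate 1 (0.053), and Lrp5 without KO cortex replicate 1 (0.067) or replicate 2 (0.05) or KO hippocampus replicate 2 (0.063). Lgr4 was lost without KO cortex replicate 2 (0.15), without any 1 of the 4 hippocampal libraries (0.051 to 0.081), and with only the KO libraries in the fit (0.069). Without KO cortex replicate 2, Gsk3b (0.044) and Tcf7l2 (0.036) passed as lower in hippocampus, and without KO hippocampus replicate 2, Nkd2 did (0.046).

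The genotype by tissue interaction, which tests whether the KO changes the tissue difference, called 0 of the 44 genes by edgeR, beside 0.00% of all genes tested. At an unadjusted p under 0.05 it held 0 of the 44, beside 0.981% of all genes. DESeq2 and limma, with a limma fit for each pseudocount, also called 0 of the 44. The interaction estimates ran from -0.72 (Sfrp5) to 0.43 (Dkk1) on the log2 scale, and for 39 of the 44 the 95% interval lay within 1 of 0.

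Loss of Srrm4 left no called change in these 44 genes. In cortex 0 of the 44 passed by edgeR, beside 0.0186% of all genes tested (3 of 16111), and 0 had an unadjusted p under 0.05, beside 1.14% of all genes. Log2 fold changes in cortex ran from -0.27 (Rspo1) to 0.36 (Fzd10). In hippocampus 0 of the 44 passed, beside 0.0248% of all genes, and 2 had an unadjusted p under 0.05 (Fzd2 and Rspo3), beside 3.81%. The log2 fold changes ran from -0.59 (Sfrp5) to 0.46 (Dkk1). Over both tissues, with 4 libraries of each genotype, 0 of the 44 passed, beside 0.0621% of all genes, and 1, Fzd2, had an unadjusted p under 0.05, beside 4.43%. DESeq2 and limma called 0 of the 44 in each of the 3 contrasts, as did edgeR with the replicate block and with each library left out.

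**Figure D4:**
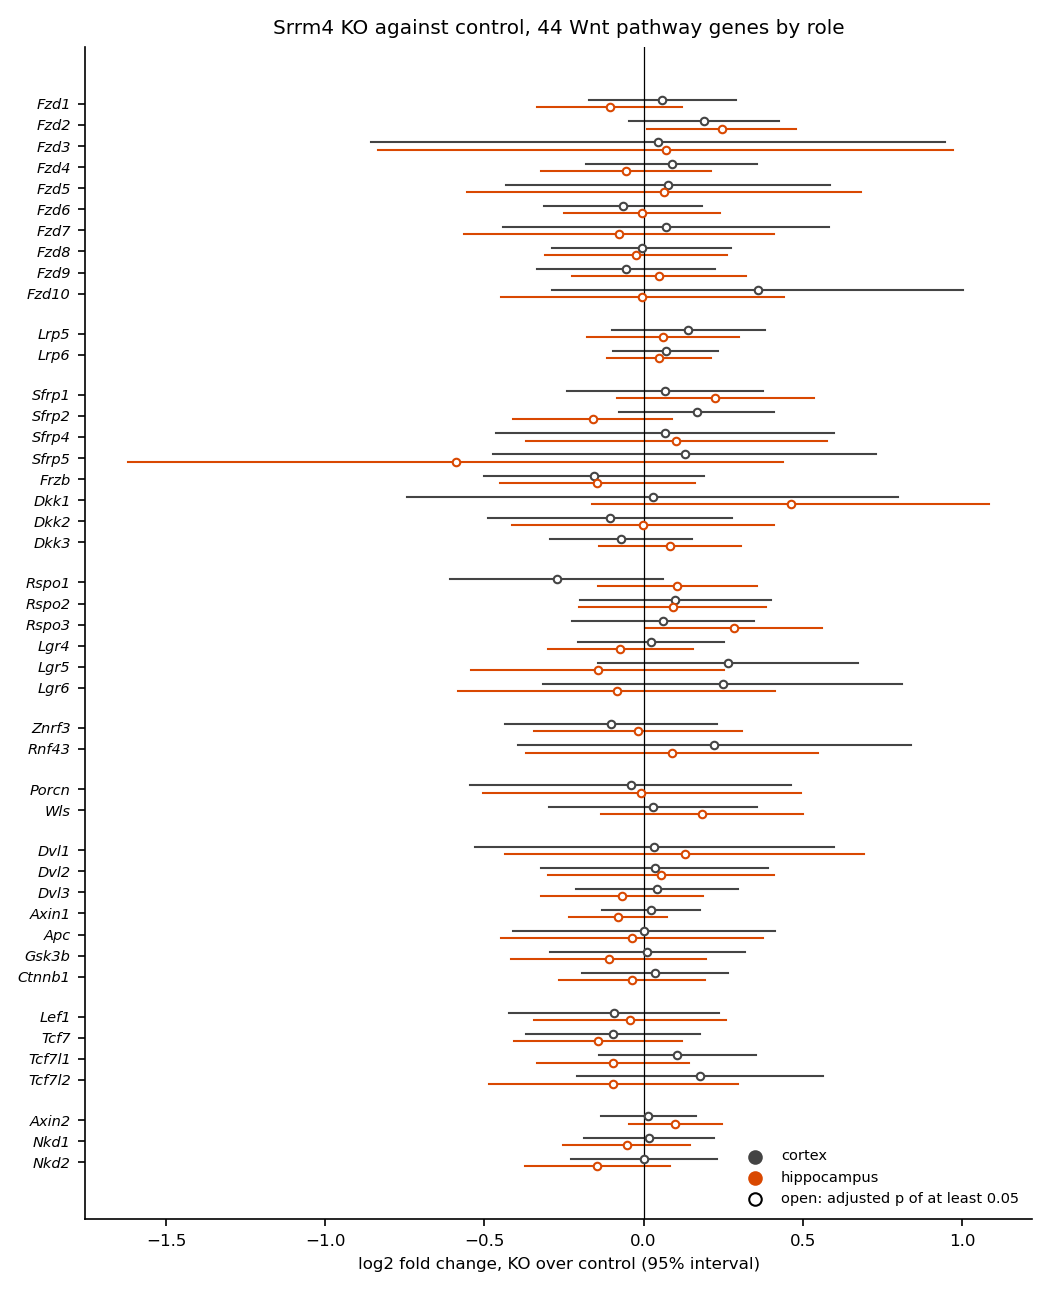
Log2 fold change of KO over control in cortex and in hippocampus for each of the 44 genes, with 95% intervals as bars. The intervals of 29 genes in cortex and 30 in hippocampus lie within 0.5 of 0, and those of Fzd3, Sfrp5 and Dkk1 reach beyond it in both tissues.

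The size of a change that the data leave possible differed by gene. Over both tissues the 95% interval lay within 0.5 of 0 on the log2 scale for 41 of the 44 genes and within 1 for all 44. That fit took the 4 libraries of a genotype as separate. If same-numbered libraries of the 2 tissues share animals, these intervals may be too narrow. In single tissues, 29 of 44 lay within 0.5 in cortex and 30 of 44 in hippocampus, and within 1 there were 43 and 42. Fzd2 had the smallest p over both tissues, with levels of 6.14 and 5.53 RPKM in control cortex, 6.77 and 6.51 in KO cortex, 7.10 and 6.47 in control hippocampus and 8.38 and 8.07 in KO hippocampus. In both tissues the 2 KO libraries were above the 2 control ones (log2 fold change 0.22, SE 0.07, unadjusted p = 0.0095, adjusted p = 1 by edgeR). Rspo3, with the levels given above, had a log2 fold change of 0.17 (SE 0.09, unadjusted p = 0.078 and adjusted p = 1 by edgeR). Frzb, Tcf7 and Sfrp1, which had the next smallest p, had -0.15 (SE 0.09), -0.12 (SE 0.08) and 0.15 (SE 0.09), none of which passed.

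Among the other 66 pathway genes, 0 were called by edgeR in cortex, in hippocampus or over both tissues, and 0 in the interaction. Unadjusted p-values under 0.05 numbered 0, 2, 3 and 1 of the 66. No tested gene of the marker lists passed in the KO contrasts, though some lists had fold changes mostly of 1 sign. The 6 red blood cell markers had positive log2 fold changes over both tissues in 6 of 6 cases (median 0.59), with sums of 44.2 to 58.1 CPM in controls and 60.8 to 101 in KO. Values were also positive for 8 of 8 microglia markers (median 0.135), 6 of 6 markers of Cajal-Retzius cells and the cortical hem (0.153) and 5 of 5 of intermediate progenitors (0.155). They were positive for 0 of 5 markers of the oligodendrocyte lineage (-0.111), 1 of 7 of the choroid plexus (-0.241) and 1 of 7 of meningeal fibroblasts (-0.135). By tissue, the choroid plexus median was 0.297 in cortex and -0.606 in hippocampus. That of meningeal fibroblasts was 0.235 in cortex and -0.279 in hippocampus. Over both tissues, the medians of the other 8 lists lay between -0.075 and 0.029. Among these, striatal and ventral forebrain markers had opposite signs by tissue. Their median was 0.111 in cortex (8 of 9 positive) and -0.377 in hippocampus (2 of 9 positive). The part of these cells in the small differences above, including those of Fzd2 and Rspo3, was not tested.

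Replicate number also went with some of the 44 genes. With a limit of 0.25 on the log2 scale in all 4 groups, Fzd3 and Apc were lower in replicate 2 (-1.01 to -0.56 and -0.31 to -0.28) and Porcn and Dvl1 were higher (0.33 to 0.50 and 0.39 to 0.67). Replicate 1 is the deeper library of each group and its table holds 2 sequencing runs, and whether the number marks a shared litter or day was not tested. Of the 44 genes, 10 shared exonic bases with another annotated gene in GENCODE M21, at most 18.3% of their own exonic bases (Dvl2 with Acadvl), and the sources used here do not give the strand setting of the counting. The other genes concerned were Axin2, Ctnnb1, Dvl1, Fzd5, Fzd6, Lef1, Rspo3, Sfrp2 and Tcf7l1.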

How the data were processed

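Messenger RNA from the 8 libraries was made into TruSeq libraries, per the labels' protocols. Bowtie and the mouse build mm9 are named, with no version of Bowtie, per the submitters' processing notes. Each table deposited by the authors gives a gene's RPKM and its read count. The count column was used as deposited by the authors for testing. The RPKM column, also made by the authors, has 1114 cells with the text "ne" in each table and was therefore recorded under the unit other; those cells were taken as missing. Blank count cells, 4244 to 5054 per table, were read as 0. Replicate 1 of each group is 1 table that pools runs 1 and 2, so 12 samples gave 8 libraries. Of 22667 gene IDs, 20759 were matched to symbols through GENCODE M21, which differs from mm9 in build, so coordinates are given only for RefSeq promoters on GRCm38.p6.

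Counts were tested with edgeR 4.0.16 (R 4.3.3, TMM, filterByExpr with minimum count 10 and minimum total 15, two-sided, Benjamini-Hochberg, threshold 0.05). The SE is the log2 fold change divided by the square root of F, and 95% intervals use the moderated degrees of freedom. All 8 libraries entered each fit; tissue and interaction came from 4 group means and the KO effect over both tissues from an additive model. limma 3.58.1 on log2(RPKM + 1) and log2(RPKM + 0.1) and DESeq2 1.42.0 were alternatives, and the test was checked on simulated counts. Replicate numbers were not taken as pairs, since no label ties them to an animal, litter or day. Correlations of same-numbered libraries, Y-linked sums and calls with the number as a block are given below.

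The members and the lists of pathway genes, targets and markers were chosen with earlier results of these data known. Genes are named with every value where they passed between tissues in controls with an absolute log2 fold change of at least 1 (at most 12 per direction), where they were among the 5 smallest p over both tissues, or where they were the 2 most abundant of their role (1 for roles of 3 or fewer). Libraries held 58210499 to 140052443 counts; intervals here cover counting error and the spread between libraries together.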

Additional observations from a re-analysis of the deposited data

How the results depend on the processing

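The number of the 44 genes called in controls between tissues (32) was 27 to 34 under 10 other settings and 25 to 31 with 1 library left out; in KO (31) it was 27 to 36 and 27 to 31. The lowest of the other settings, 27, came from requiring at least 1 RPKM in at least 2 libraries, which tested 39 of the 44. No genotype or interaction count left 0. The labels do not say that same-numbered libraries share an animal. Their deviations from the group means correlated at 0.0961 to 0.38 over the 6 pairs of groups, at 0.368 between tissues in controls and 0.38 in KO. Summed Y-linked CPM of replicates 1 and 2 was 35.3 and 144 in control cortex beside 39.6 and 148 in control hippocampus. In KO it was 25.4 and 0.319 in cortex beside 49.8 and 0.412 in hippocampus. With the replicate number as a block, 34 and 36 were called, with Dvl2 (adjusted p = 0.016) and Apc (0.011) added in controls, where it changed no other call, and with Fzd2 (0.049), Dvl2 (0.0085), Apc (0.0057), Gsk3b (0.019) and Tcf7l2 (0.032) added in KO. Axin1 passed in controls with total counts (0.049), and Fzd2 in KO with total counts (0.03) and both limma fits (0.04 and 0.036). Over all genes the block raised calls from 5464 to 7053 in controls, from 6442 to 8151 in KO and from 10 to 22 for KO over both tissues. Without 1 library, calls over all genes were 3231 to 6000 in controls and 4156 to 6364 in KO, and DESeq2 called 37 for KO over both tissues. Using total counts moved the median of all genes in KO from 0.03 to 0.14. Signs turned for genes that were not called. With 1 library left out in controls, Fzd3 ran from -0.63 (without hippocampus control replicate 1) to 0.22 (without hippocampus control replicate 2), Dvl1 from -0.353 to 0.093, Dvl3 from -0.073 to 0.158, Tcf7l2 from -0.300 to 0.084 and Nkd2 from -0.002 to 0.013. Nkd2 was also at -0.013 with RLE factors and with DESeq2. In KO, Fzd3 ran from -0.70 (without hippocampus KO replicate 1) to 0.29 (without hippocampus KO replicate 2), Fzd4 from -0.045 to 0.080, Dvl1 from -0.308 to 0.321, Dvl3 from -0.180 to 0.031 and Axin1 from -0.025 to 0.062. With RLE factors and with DESeq2, Fzd4 was at -0.009 and -0.008 and Axin1 at -0.008 and -0.009 in KO. With total counts, limma on log2(RPKM + 1) and limma on log2(RPKM + 0.1), Lrp6 was at 0.011, 0.008 and 0.009, Dvl1 at 0.076, 0.096 and 0.10 and Dvl3 at 0.037, 0.035 and 0.036. With upper-quartile factors Dvl1 was at 0.046 and Dvl3 at 0.001. The cause was not tested. On log2(RPKM + 1), which shrinks low genes by construction, Fzd10 differed by 2.06, Rnf43 by 1.38 and Sfrp5 by -0.89 in controls, all still called. Dkk1, Lgr5, Fzd5 and the other genes below 1 RPKM rest on few counts (as low as 6 in a library), which limits the precision of their differences.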
